A study of Mus musculus with 8 samples.

Results

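The genes described here deliver fatty acids to the heart: the lipoprotein lipase system (Lpl, its maturation factor Lmf1 and its endothelial platform Gpihbp1), the uptake proteins Cd36 and Slc27a1, the fatty acid binding proteins Fabp3, Fabp4 and Fabp5, and the lipoprotein receptors Vldlr and Lrp1. They were chosen by name for their known roles, 10 genes of the 30153 rows of the deposited table, and all 10 were high enough to be tested. The samples were 8 heart libraries of aged C57/BL6 mice, all labelled Haplotype-II, a form of the human gene for the type 1 angiotensin receptor that these mice overexpress: 4 without the diet (control) and 4 given a western diet. Both groups carry the human haplotype and both are aged, so the only comparison is diet within that background, and no young mice or mice without the transgene are compared here. The labels give no sex, exact age, feeding time, transgene promoter or batch, and do not say whether the 4 libraries of a group came from different animals, so p-values reflect only how much these libraries vary.

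Fat reaches heart muscle mostly as triglyceride inside lipoproteins and as free fatty acid bound to albumin. Lipoprotein lipase is made by cardiomyocytes, folds with the help of LMF1, and is carried by GPIHBP1 across the capillary endothelium, where it cuts triglyceride. The released fatty acids pass through CD36 and fatty acid transport proteins and are bound in the endothelium by FABP4 and FABP5 and in the cardiomyocyte by FABP3, while the VLDL receptor and LRP1 take up whole particles and remnants. Several of these genes are known targets of the PPAR nuclear receptors, which fatty acids activate.

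Levels are in TPM, an abundance per transcript length expressed as a share of all transcripts in the library, so levels of different genes can be compared, but read depth is unknown and no counting error can be given. The libraries held between 10620 and 11175 genes of at least 1 TPM. As a check of the tissue, the levels of 10 cardiomyocyte markers were summed, and none of the 10 was at 0. The sum was 58799 to 64112 TPM in control. It was 64056, 61215, 55003 and 51810 TPM in western diet replicates 1 to 4, so replicates 3 and 4 lay below every control. Single markers did not all follow this sum. The Y-linked gene Eif2s3y ranged from 21.1 to 29.0 TPM in control and reached 22.3 TPM for western diet replicate 4, but was at most 0.0231 TPM in western diet replicates 1, 2 and 3. The atrial gene Myl7 was at 184 and 1403 TPM in control replicates 1 and 3 and 335 TPM in western diet replicate 2, against at most 2.87 TPM elsewhere. Control replicate 3 also held 62.1 TPM of 8 adipocyte markers in sum, against 0.846 to 4.47 TPM in the other 7 libraries, and Kap, a kidney transcript, was at 7.15 to 72.1 TPM with western diet and at most 0.685 TPM in control. Fibroblast markers summed to 293 to 409 TPM in control and 292 to 375 TPM with western diet, and mural cell markers to 187 to 217 and 207 to 278 TPM, each over 6 genes. Dcn made up most of the fibroblast sum and had the lower mean with western diet. The other 5 fibroblast markers had the higher mean, as did 66.4% of all genes tested by log2 fold change, and none of the 6 passed the threshold used below. The mural markers went both ways: Tagln was lower past the threshold used below (10 ± 1.41 against 18.6 ± 2.22 TPM, limma adjusted p = 0.0169, past it in 15 of 22 alternative fits, with adjusted p up to 0.286), the mean of Acta2 was 80.8 ± 29.1 against 33.4 ± 5.99 TPM (limma adjusted p = 0.063), Pdgfrb, Kcnj8 and Myh11 had lower and Rgs5 a higher mean, and none of these other 5 passed. The part of these differences in the results below was tested only by leaving libraries out or by a model term, where stated. Kap separates the 2 groups in full, so its part cannot be told apart from that of diet. The Y-linked genes Eif2s3y, Ddx3y, Uty and Kdm5d follow the groups in all libraries but western diet replicate 4. Only that library tells their part apart from that of diet.

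In control hearts these genes spanned a wide range of levels. Fabp3 was by far the most abundant, at 4500 ± 218 TPM (SD, n = 4), and ranked 25 of the 10969 tested genes by mean level over all libraries. It was followed by Lpl at 1376 ± 126 TPM, Fabp4 at 494 ± 21.0 TPM and Cd36 at 308 ± 28.2 TPM. Gpihbp1 was at 67.8 ± 2.33 TPM. Vldlr at 43.2 ± 5.65 TPM and Fabp5 at 41.5 ± 4.53 TPM were neighbours whose control libraries overlapped, and all other neighbours in the order had separate control ranges. Lrp1 at 22.4 ± 1.66 TPM, Lmf1 at 15.1 ± 0.987 TPM and Slc27a1 at 5.89 ± 1.37 TPM were lowest. Fabp3 made up 63.6% to 70.3% of the summed level of the 10 genes in every library.

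**Figure D1:**
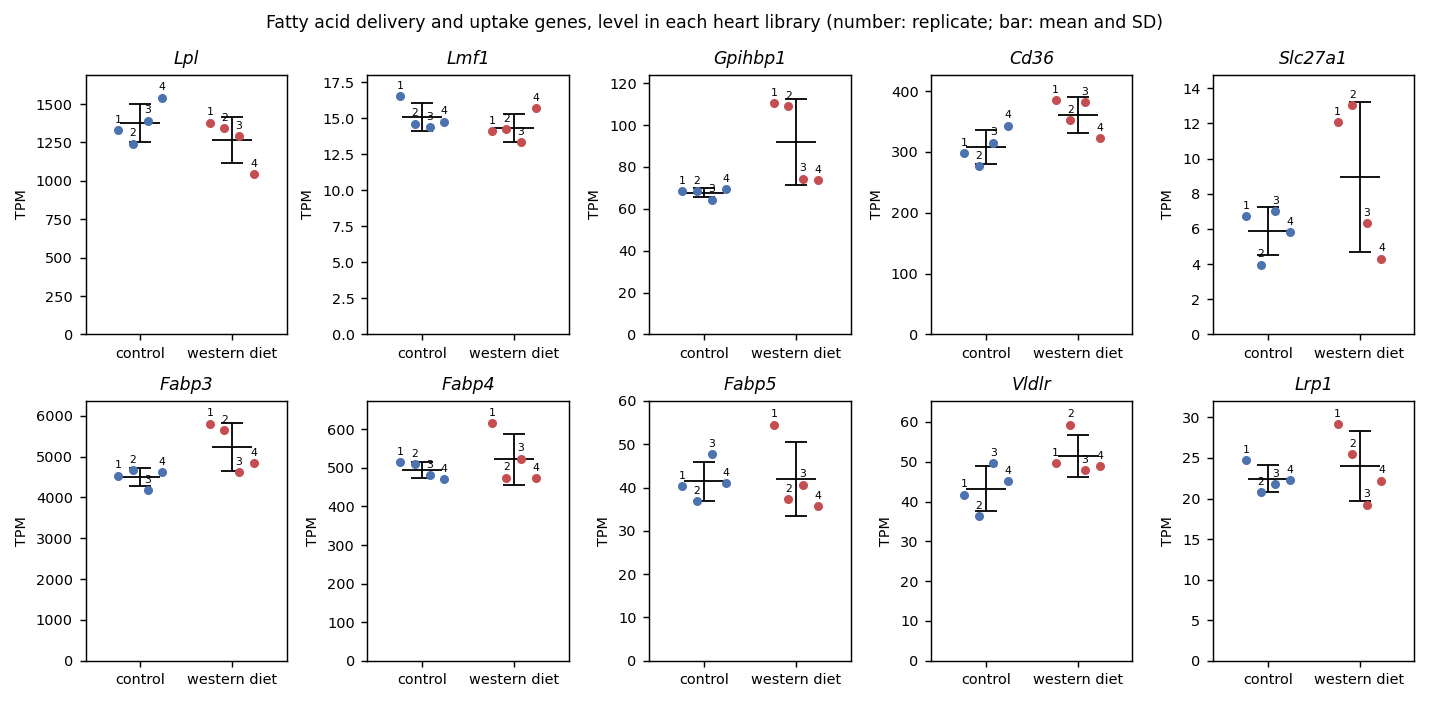
TPM (vertical axes, from 0) of the 10 genes in the 4 control libraries (blue) and the 4 western diet libraries (red), with replicate numbers and bars for mean and SD. Gpihbp1 is the gene whose groups do not overlap, with western diet replicates 1 and 2 near 110 TPM and replicates 3 and 4 near 74 TPM.

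The diet comparison asks whether hearts of mice given the western diet carried more or less of the transcripts that bring fat in. None of the 10 genes passed the threshold (limma on log2(TPM + 1), Benjamini-Hochberg adjusted p under 0.05 over 10969 genes), where 0.301% of all genes tested did (0.0729% in the lower direction). None passed at an adjusted p under 0.10 either, where 0.866% of all genes did. At an unadjusted p under 0.05 there were 3 of the 10, Gpihbp1, Cd36 and Vldlr, all with the higher mean under western diet; 9.2% of all genes tested were past that level in that direction. Of the 10 genes 8 had a log2 fold change above 0, and so did 66.4% of all genes tested; the median was 0.15 for the 10 genes and 0.06 over all genes. In bulk heart RNA, fewer cells of a type and less RNA per cell cannot be told apart.

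Within the lipase system, the mean of the enzyme was lower and that of its endothelial carrier higher with western diet, and neither passed. Lpl was at 1328, 1243, 1392 and 1542 TPM in the controls and at 1379, 1341, 1292 and 1046 TPM in western diet replicates 1 to 4. The groups overlapped, and western diet replicate 4 was the only library below all controls. The log2 fold change was -0.13 (95% interval -0.37 to 0.12, limma adjusted p = 0.711). Lpl (ENSMUSG00000015568) lies on chromosome 8 of GRCm38 from 68880491 to 68907448.

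Gpihbp1, the protein that holds lipoprotein lipase on the capillary wall, was at 68.5, 68.6, 64.35 and 69.6 TPM in the controls. In western diet replicates 1 to 4 it was at 111, 109, 74.4 and 73.8 TPM. Each western diet library lay above every control, but replicates 1 and 2 stood well above replicates 3 and 4, which exceeded the highest control by only a few TPM. Gpihbp1 was the 1 gene of 10 without overlap, where groups did not overlap in the higher direction for 4.85% of all genes tested and in the lower direction for 1.75%. The mean was 91.9 ± 20.6 against 67.8 ± 2.33 TPM, a ratio of 1.36 (log2 fold change 0.41, SE 0.14, 95% interval 0.10 to 0.71, limma adjusted p = 0.277). The adjusted p of Gpihbp1 ranged from 0.0963 to 0.999 over the alternative settings, and with a model term for Y-linked transcripts, which leaves the estimate to western diet replicate 4, its log2 fold change was 0.12. Gpihbp1 (ENSMUSG00000022579) lies on chromosome 15 from 75596628 to 75599481.

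Lmf1, the endoplasmic reticulum factor that lipases need to fold, ranged from 14.4 to 16.5 TPM in control and 13.4 to 15.7 TPM with western diet. Its groups overlapped, with a log2 fold change of -0.07 (95% interval -0.26 to 0.13, limma adjusted p = 0.817). Lmf1 (ENSMUSG00000002279) spans 25579085 to 25662826 of chromosome 17.

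Cd36, the main fatty acid translocase of heart, was at 298, 277, 315 and 343 TPM in the controls. With western diet it was at 385, 352, 382 and 322 TPM. Replicates 1, 2 and 3 lay above every control and replicate 4 lay within the control range. The log2 fold change was 0.23 (SE 0.09, 95% interval 0.02 to 0.43, limma adjusted p = 0.394). Cd36 (ENSMUSG00000002944) spans 17781690 to 17888801 of chromosome 5.

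Slc27a1, a fatty acid transport protein that also activates fatty acids with coenzyme A, was the most variable of the 10 genes. It was at 6.71, 3.98, 7.03 and 5.83 TPM in the controls and at 12.1, 13.04, 6.33 and 4.32 TPM in western diet replicates 1 to 4. Replicates 1 and 2 exceeded every control, whereas replicates 3 and 4 lay within the control range. The coefficient of variation was 47.8% with western diet and 23.3% in control, and the log2 fold change was 0.44 (95% interval -0.19 to 1.07, limma adjusted p = 0.594). Its value rests on which libraries enter: it was 0.24 without western diet replicate 2, 0.27 without western diet replicate 1, 0.71 without western diet replicate 4, 0.29 without control replicate 2 and -0.35 with the Y-linked term. Slc27a1 (ENSMUSG00000031808) spans 71568882 to 71587302 of chromosome 8.

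Fabp3, the binding protein of the cardiomyocyte cytosol, was at 4534, 4662, 4183 and 4622 TPM in the controls. With western diet it was at 5809, 5643, 4628 and 4844 TPM. Replicates 1, 2 and 4 lay above every control, and replicate 3 lay just below the highest control. The log2 fold change was 0.21 (SE 0.11, 95% interval -0.03 to 0.45, limma adjusted p = 0.487). Fabp3 (ENSMUSG00000028773) spans 130308595 to 130315463 of chromosome 4. A processed copy, Fabp3-ps1, which matched the Fabp3 transcript at 99.3% identity, was listed at only 1.79 to 7.34 TPM. The gene Zcchc17 overlaps Fabp3 on the opposite strand and was at 6.43 to 8.64 TPM.

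Fabp4 and Fabp5, the binding proteins of endothelium, macrophages and fat cells, overlapped between the groups. Fabp4 was at 514, 509.5, 481 and 471 TPM in the controls and at 616, 475, 524 and 473 TPM with western diet (log2 fold change 0.07, 95% interval -0.15 to 0.29, limma adjusted p = 0.832). Fabp5 was at 40.3, 36.8, 47.7 and 41.1 TPM in the controls and at 54.5, 37.4, 40.7 and 35.7 TPM with western diet (log2 fold change 0.01, 95% interval -0.29 to 0.30, limma adjusted p = 0.991). For both genes western diet replicate 1 was the highest of all 8 libraries, and that library also held the most macrophage marker RNA, 369 TPM summed over 10 genes against 206 to 254 TPM in the other 7. Of those 10 macrophage markers 9 were tested and none passed. All 9 had the higher mean with western diet, where 66.4% of all genes tested had a log2 fold change above 0. Groups did not overlap for 2 of the 9, C1qa and C1qb, where 4.85% of all genes tested did not overlap in that direction. Control replicate 3, the library with adipocyte transcripts, was the third of the 4 controls for Fabp4 and the highest control for Fabp5. The part of either cell type in the Fabp4 and Fabp5 levels was not tested. The signs of Fabp4 and Fabp5 turned under median-of-ratios scaling. Fabp4 (ENSMUSG00000062515) spans 10204088 to 10208576 of chromosome 3. Fabp5 (ENSMUSG00000027533) spans 10012548 to 10016607 of chromosome 3.

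The lipoprotein receptors showed small differences. Vldlr, which binds triglyceride-rich particles beside lipoprotein lipase, was at 41.7, 36.2, 49.6 and 45.2 TPM in the controls and at 49.7, 59.3, 47.8 and 48.9 TPM with western diet. Replicate 2 stood clear of the controls, replicate 1 matched the highest control, and the group ranges overlapped. The log2 fold change was 0.25 (SE 0.11, 95% interval 0.01 to 0.49, limma adjusted p = 0.416). Vldlr (ENSMUSG00000024924) spans 27216484 to 27254231 of chromosome 19. Lrp1, a large receptor for remnants and many other ligands, ranged from 20.8 to 24.7 TPM in control and 19.2 to 29.2 TPM with western diet (log2 fold change 0.08, 95% interval -0.19 to 0.35, limma adjusted p = 0.846). Its sign turned under quantile normalization. Lrp1 (ENSMUSG00000040249) spans 127538161 to 127621148 of chromosome 10.

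A pattern shared by several of the genes was the split inside the western diet group. Relative to the control mean on the log2(TPM + 1) scale, western diet replicates 1 and 2 were higher by 0.70 and 0.68 for Gpihbp1, by 0.95 and 1.05 for Slc27a1 and by 0.37 and 0.33 for Fabp3. In replicates 3 and 4 the differences were 0.13 and 0.12 for Gpihbp1, 0.11 and -0.35 for Slc27a1 and 0.04 and 0.11 for Fabp3. For Lrp1 replicates 1 and 2 were higher by 0.37 and 0.18, and replicates 3 and 4 were at -0.21 and -0.01. In Vldlr and Lpl replicates 1 and 2 also lay above replicates 3 and 4, by less. Vldlr was at 0.21 and 0.46 against 0.15 and 0.19, and Lpl at 0.01 and -0.03 against -0.09 and -0.39. Lmf1, Cd36, Fabp4 and Fabp5 did not split this way. The spread of Gpihbp1 was 22.4% of its mean with western diet and 3.44% in control.

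**Figure D2:**
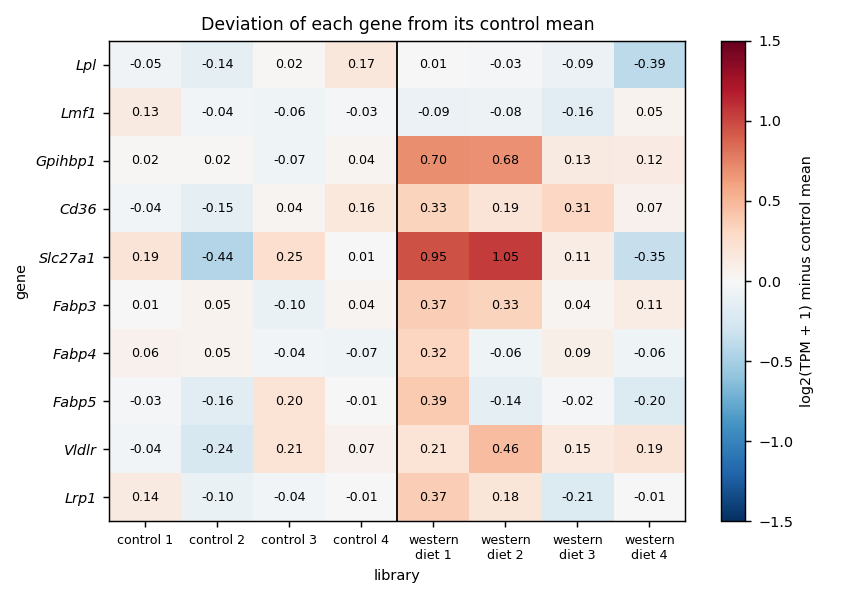
Difference of log2(TPM + 1) from the control mean for each of the 10 genes (rows) in each of the 8 libraries (columns), red above and blue below the control mean. Western diet replicates 1 and 2 hold the highest cells, 0.70 and 0.68 for Gpihbp1 and 0.95 and 1.05 for Slc27a1, and replicate 4 the lowest of the Lpl row, -0.39.

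The same 2 libraries stood apart in how their levels moved with base composition. Across the 10901 tested genes with a transcript sequence in GENCODE, the median difference from the control mean in the top of 5 equal groups by GC content (55.5% to 72.8%) was 0.21 in western diet replicate 1 and 0.25 in western diet replicate 2, against 0.05 and 0.10 in the group with the lowest GC content. In the other 6 libraries the highest group differed from the lowest by -0.10 to 0.09. The 4 genes with the wider splits were picked from these same values. They had the highest GC content of the 10 in their longest transcripts. It was 57.9% for Lrp1, 56.9% for Slc27a1, 53.9% for Fabp3 and 53.5% for Gpihbp1, against 38.4% to 49.0% for the other 6. Vldlr and Lpl, with the same order of libraries, were at 43.8% and 43.5%. The summed cardiomyocyte markers were also higher in western diet replicates 1 and 2 (64056 and 61215 TPM) than in replicates 3 and 4 (55003 and 51810 TPM). Single markers disagreed: Tnni3, Tnnt2, Myl2, Myl3 and Mb had this order and Actn2 did not. Myh6, Actc1, Ryr2 and Pln were highest of the western diet group in replicate 3. The part of base composition or of cell content in the split was not tested. After a per-library correction for GC content and transcript length, added after the data were seen, the log2 fold change was 0.34 for Gpihbp1 (limma adjusted p = 0.131), 0.34 for Slc27a1 (limma adjusted p = 0.511), 0.19 for Cd36 (limma adjusted p = 0.205) and 0.18 for Vldlr (limma adjusted p = 0.232). It was 0.15 for Fabp3 (limma adjusted p = 0.325) and -0.07 for Lrp1 (limma adjusted p = 0.853). The correction also recentred each library, and the median of all genes moved from 0.06 to -0.01. Median-of-ratios scaling, which uses no GC content, moved that median to the same value. It gave 0.33 for Gpihbp1, 0.37 for Slc27a1, 0.15 for Cd36, 0.17 for Vldlr, 0.13 for Fabp3 and 0.01 for Lrp1. The part of base composition in these changes was not tested.

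**Figure D3:**
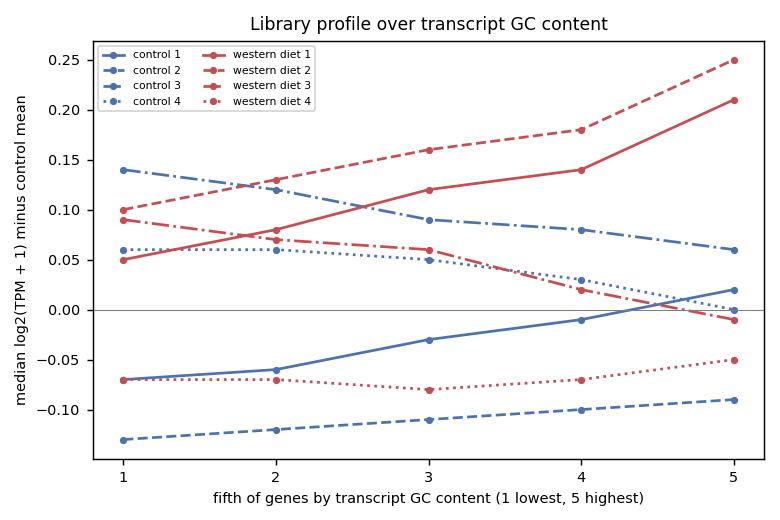
Median difference of log2(TPM + 1) from the control mean (vertical axis) in 5 equal groups of the tested genes ordered by transcript GC content (horizontal axis), 1 line per library, blue for control and red for western diet. Western diet replicates 1 and 2 climb to 0.21 and 0.25 in the group of highest GC content.

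The promoter windows were read for sequence features that genes high in the same libraries might share. RefSeq (GRCm38.p6) gave an entry for 6 of the 10 genes: Cd36, Fabp3, Slc27a1, Vldlr, Lmf1 and Lrp1. The 250 bases before the start are shown for Fabp3 and Slc27a1, which were high in the same western diet libraries, and for Cd36 and Vldlr, whose intervals lay above 0 as single genes. Where RefSeq had several starts, the start nearest the GENCODE gene start was taken. The only Cd36 entry starts 52905 bases inside the GENCODE gene, so its window is that of an internal start, and the Fabp3 start lies 143 bases inside. Each is written 5′ to 3′ on the gene's strand, and capitals mark matches on either strand to the motifs searched.
Fabp3, chr4:130308488-130308737, plus strand.
Fabp3: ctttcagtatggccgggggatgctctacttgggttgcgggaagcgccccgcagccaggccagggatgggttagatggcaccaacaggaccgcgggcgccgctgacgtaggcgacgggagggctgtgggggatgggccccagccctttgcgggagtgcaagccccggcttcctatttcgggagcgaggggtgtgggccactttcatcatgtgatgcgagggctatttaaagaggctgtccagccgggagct
Slc27a1, chr8:71568621-71568870, plus strand.
Slc27a1: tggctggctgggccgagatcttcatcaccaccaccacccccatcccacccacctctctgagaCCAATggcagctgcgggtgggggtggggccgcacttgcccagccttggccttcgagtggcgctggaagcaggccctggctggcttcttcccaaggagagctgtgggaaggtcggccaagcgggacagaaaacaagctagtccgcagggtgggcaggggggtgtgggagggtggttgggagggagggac
Cd36, chr5:17835897-17836146, minus strand.
Cd36: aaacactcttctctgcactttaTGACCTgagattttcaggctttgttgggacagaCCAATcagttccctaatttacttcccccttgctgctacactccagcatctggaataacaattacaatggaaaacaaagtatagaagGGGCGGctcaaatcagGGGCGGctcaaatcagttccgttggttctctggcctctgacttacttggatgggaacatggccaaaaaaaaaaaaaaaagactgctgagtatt
Vldlr, chr19:27216234-27216483, plus strand.
Vldlr: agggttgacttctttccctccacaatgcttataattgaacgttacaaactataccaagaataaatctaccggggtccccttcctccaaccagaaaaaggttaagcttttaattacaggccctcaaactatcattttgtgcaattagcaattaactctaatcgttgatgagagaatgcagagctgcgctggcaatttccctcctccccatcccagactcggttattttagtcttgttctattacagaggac

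The windows of Fabp3 and Slc27a1 are rich in G and C, 64.8% and 66.4%, against 43.2% for Cd36 and 41.6% for Vldlr. The median was 52.4% over 32851 RefSeq promoter windows of the same length. Among the unprinted windows Lrp1 was at 67.2% and Lmf1, which did not split between the western diet libraries, at 66.8%. A window rich in G and C was thus not particular to the genes that split. The motifs searched were the PPAR element (2 tandem copies of AGGTCA with 1 free base between them), the receptor hexamer AGGTCA that it contains, the GC box GGGCGG, the CCAAT box, the TATA box TATAAA and the E-box CACGTG. They occur in 0.0335%, 14%, 32.7%, 33.8%, 12.4% and 6.02% of all windows, in that order. The Cd36 window holds 1 hexamer from 228 to 223 bases before the start, 2 GC boxes and 1 CCAAT box, and the Slc27a1 window holds 1 CCAAT box from 188 to 184 bases before the start. Of the unprinted windows, Lmf1 and Lrp1 hold 1 GC box each. The exact letters of the PPAR element are in 0 of the 6 windows, which says nothing of PPAR binding to these genes.

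Ratios of partners within a library do not depend on how libraries are scaled. They can still shift where levels move with GC content, which was 53.5% for Gpihbp1 and 43.5% for Lpl. The part of GC content in the ratios was not tested. Of 11 such ratios, none passed an adjusted p of 0.05 (two-sided exact permutation test over 70 assignments, whose smallest possible p is 0.0286, adjusted over the 11), and 2 reached that smallest p. With so few libraries 7 of the 11 ratios would have to be at that p for any to pass, so this count says little. The Gpihbp1 to Lpl ratio was 0.0516, 0.0552, 0.0462 and 0.0451 in the controls and 0.0802, 0.0812, 0.0576 and 0.0705 with western diet. Every western diet heart library thus had more carrier transcript per lipase transcript than any control, including replicate 4, where Lpl was lowest (log2 difference 0.54, exact permutation p = 0.0286, adjusted p = 0.157). Taken instead against the geometric mean of 12 endothelial markers, Gpihbp1 was at 3.06, 3.28, 2.67 and 3.04 in the controls and 4.28, 4.00, 3.05 and 3.13 with western diet, and the groups overlapped (log2 difference 0.25, exact permutation p = 0.171, adjusted p = 0.55). The 12 endothelial markers summed to 321 to 375 TPM in the controls and 355 to 414 TPM with western diet, none was at 0, and 1 of them, the tight junction gene Cldn5, passed the threshold (17.3 ± 1.38 against 8.57 ± 0.992 TPM, log2 fold change 0.94, limma adjusted p = 0.00527, and 1.03 with adjusted p = 0.0609 in the 5 libraries with Myl7 under 100 TPM). The other endothelial-referenced ratios, of Cd36, Fabp4 and Fabp5, overlapped between the groups, with log2 differences of 0.06, -0.09 and -0.16. With Cldn5 left out of the endothelial mean the log2 differences were 0.33 for Gpihbp1, 0.14 for Cd36, -0.01 for Fabp4 and -0.08 for Fabp5.

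The remaining ratios of neighbouring steps also overlapped. Fabp4 over Fabp3, the endothelial over the muscle binding protein, was 0.11 ± 0.00583 in control and 0.1 ± 0.0125 with western diet (exact permutation p = 0.2, adjusted p = 0.55). Cd36 over Fabp3 was 0.0687 ± 0.00757 against 0.0694 ± 0.00891 (log2 difference 0.01, exact permutation p = 0.914, adjusted p = 0.914). Vldlr over Lrp1 was 1.93 ± 0.274 against 2.18 ± 0.338 (exact permutation p = 0.286, adjusted p = 0.576).

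**Figure D4:**
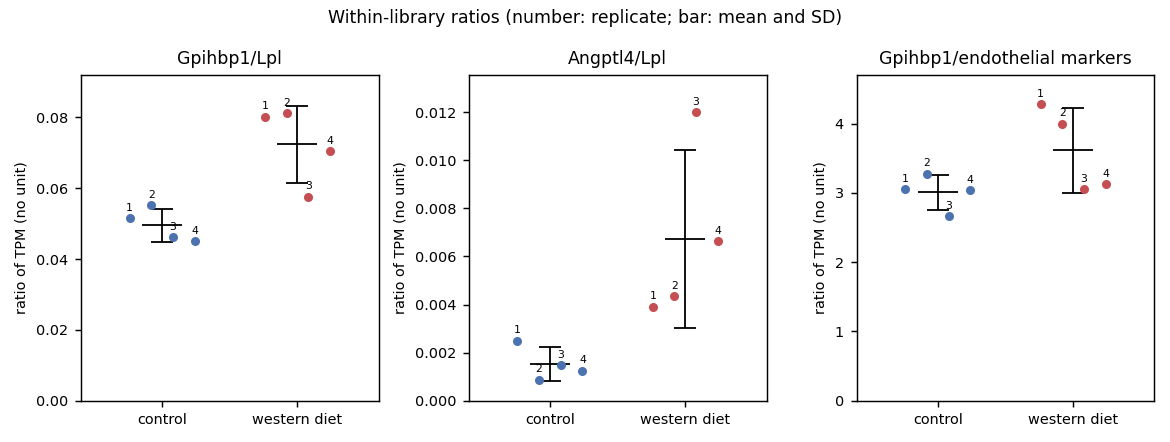
Ratios of TPM within each library (vertical axes, no unit, from 0) for control (blue) and western diet (red), with replicate numbers and bars for mean and SD. The 4 western diet libraries lie above all controls for Gpihbp1 over Lpl (0.0576 to 0.0812 against 0.0451 to 0.0552) and for Angptl4 over Lpl, and overlap them for Gpihbp1 over endothelial markers.

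The wider pathway was read from 4 lists of 73 genes: control of lipoprotein lipase, fatty acid handling, lipoprotein receptors and regulators of uptake. Of these, 49 were high enough to be tested, and 0 passed an adjusted p of 0.05 in either direction (limma). At an unadjusted p under 0.05 there were 8 higher and 2 lower, and the share of all genes past that level in either direction was 11.7%. Groups did not overlap for 5 with the higher mean, where 4.85% of all genes tested did not overlap in that direction and 6.6% of all genes tested did not overlap in either direction.

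Among the 15 genes that control lipoprotein lipase, 9 were tested and 8 had the higher mean with western diet (median log2 fold change 0.14). Angptl4, a secreted inhibitor of lipoprotein lipase and a known PPAR target, was at 3.32, 1.09, 2.06 and 1.93 TPM in the controls and 5.399, 5.84, 15.5 and 6.94 TPM with western diet. Its groups did not overlap, and western diet replicate 3 was far above the others. The mean was 8.43 ± 4.78 against 2.10 ± 0.918 TPM (log2 fold change 1.54, SE 0.29, 95% interval 0.89 to 2.18, limma adjusted p = 0.063). Without western diet replicate 3 the adjusted p was 0.0402 and the log2 fold change 1.23, and over all alternatives the adjusted p ran from 0.0402 to 0.424. Angptl4 over Lpl was 0.00153 ± 0.000693 in control and 0.00673 ± 0.00373 with western diet, with no overlap (log2 difference 2.10, exact permutation p = 0.0286, adjusted p = 0.157). Furin, a protease that can cleave lipoprotein lipase, had a mean of 27.1 ± 4.70 TPM with western diet and 19.2 ± 2.78 TPM in control (limma adjusted p = 0.203).

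Fatty acid handling genes beyond the 10 held 25 names, of which 13 were tested and 8 had the higher mean (median log2 fold change 0.08). Acsl1, the main acyl-CoA synthetase of heart, which traps fatty acids after entry, was at 217, 208, 234 and 243 TPM in the controls and 272, 286, 313 and 241 TPM with western diet. As with Cd36, replicates 1, 2 and 3 lay above every control and replicate 4 did not (log2 fold change 0.30, 95% interval 0.09 to 0.51, limma adjusted p = 0.252). Acsl3 had a mean of 3.13 ± 0.478 TPM with western diet and 2.31 ± 0.363 TPM in control (limma adjusted p = 0.351) and Acsl6 at 7.02 ± 0.614 against 8.30 ± 0.690 TPM (limma adjusted p = 0.443). Fabp6 and Fabp9, binding proteins of other tissues, were listed at 0 in all 8 libraries.

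Of 18 further lipoprotein receptor genes 12 were tested, 6 with the higher and 6 with the lower mean. Mylip, the ubiquitin ligase that sends the VLDL receptor to degradation, was at 4.89, 4.65, 4.98 and 4.24 TPM in the controls and 8.19, 6.96, 6.55 and 5.32 TPM with western diet, without overlap (log2 fold change 0.44, limma adjusted p = 0.188). Lrp5, a coreceptor of Wnt signalling, was at 13.9 ± 2.22 against 10.6 ± 1.21 TPM (limma adjusted p = 0.293).

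All 15 regulators of uptake were tested, 11 with the higher mean (median log2 fold change 0.17), and the groups of none were separate. Apln, the ligand of the apelin receptor on endothelium, was at 4.24 ± 0.950 against 5.48 ± 0.357 TPM (limma adjusted p = 0.391). Ppard, the PPAR delta receptor, had a mean of 9.31 ± 1.45 TPM with western diet and 7.62 ± 0.854 TPM in control (limma adjusted p = 0.452), and Rbpj, the nuclear partner of Notch, at 6.66 ± 0.919 against 5.35 ± 0.973 TPM (limma adjusted p = 0.46).

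**Figure D5:**
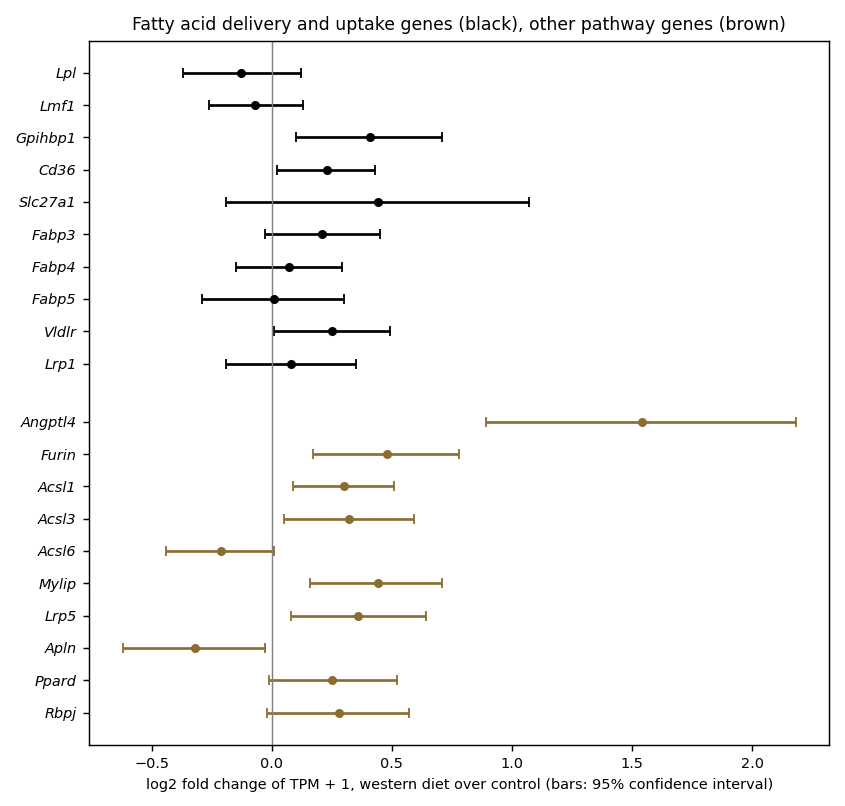
Log2 fold change of TPM + 1 (horizontal axis; points, with bars for the 95% confidence interval of each gene alone) for the 10 genes (black) and 10 other pathway genes (brown), western diet over control. The intervals of Gpihbp1, Cd36 and Vldlr lie above 0 before adjustment, and Angptl4 lies farthest to the right at 1.54.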

How the data were processed

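RNA of mouse heart (8 libraries, 4 control and 4 western diet) was purified on Qiagen columns and made into Illumina TruSeq stranded libraries after polyadenylated RNA was pulled down, per the labels' protocols. The authors deposited gene-level TPM; kallisto, DESeq2 and the build GRCm38 are listed, without version or role, per the submitters' processing notes, and the annotation release is not given in the sources used here. The columns summed to 941318 to 953448. TPM keeps no read depth, and since it is a share, an abundant transcript lowers all others. kallisto assigns reads shared between similar genes by estimation, so copies of the 10 genes were looked for (at least 90% identity over at least 50% of the copy, BLAST). Among the copies in the deposited table, only Fabp3-ps1 and Gm17571 had a level above 0 in any library. Gm17571 matched Lmf1 at 93.5% identity over 68.9% of its length and was at 0 to 2.99 TPM.

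Names and coordinates came from GENCODE vM21 on GRCm38 (29811 of 30153 rows named). The 10969 genes reaching 1 TPM in 4 or more libraries entered a limma 3.58.1 fit (R 4.3.3) of log2(TPM + 1) (group as the only term, intensity trend, two-sided, Benjamini-Hochberg over all genes tested). Fold changes on that scale understate low genes. In 10 simulated runs with 200 of 10969 genes changed, 90% of 2-fold and 98.8% of 4-fold changes in TPM + 1 were recovered and 4.29% of calls were false. The simulated noise was normal and independent between genes and libraries, unlike libraries that differ in tissue content. The largest log2 fold change of the 10 genes was 0.44, so these shares do not cover changes of their size. Ratios were tested with an exact permutation test (scipy 1.17.1).

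The 10 genes, the pathway and marker lists, the tests and the alternatives were chosen with earlier results of these data known. The text names the 10 genes, Angptl4, the 3 genes of smallest p in each pathway list (none passed the threshold), and markers; some genes that this rule names are not reported here. Replicate numbers follow the accession order and do not pair samples.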

Additional observations from a re-analysis of the deposited data

Results flagged for a closer look

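In 4 of 70 groups of 4 values a single library stood far from the other 3 of its group; chance gives about 1 in 20. Vldlr was at 59.3 TPM in western diet replicate 2, against 47.8 to 49.7 TPM in the rest of that group. Angptl4 was at 15.5 TPM in western diet replicate 3, against 5.4 to 6.94 TPM. The Lmf1 to Lpl ratio was 0.015 in western diet replicate 4, against 0.0102 to 0.0106, in the library with the lowest Lpl. Cd36 over the endothelial markers was 15 in control replicate 4, against 13.1 to 13.3.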

How the results depend on the processing

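None of the 10 genes passed in any of 22 alternative fits or at an adjusted p of 0.10; the lowest adjusted p was 0.0963, for Gpihbp1 with library weights. Over all genes, 33 passed, against 5 with no filter, 15 with a mean of at least 5 TPM, 61 after quantile normalization, 108 with library weights, 54 with the Y-linked term, 76 in the libraries with Y-linked transcripts alone, 5 in those with Myl7, an atrial gene, under 100 TPM, 95 at an adjusted p of 0.10, 103 after the GC and length correction (added after seeing the data) and 8 to 95 when 1 library was left out: 15, 9, 13 and 8 without control replicates 1 to 4, and 54 and 95 without western diet replicates 3 and 4. The cause was not tested. The adjusted ratio tests can hardly pass at this size, so their alternatives say nothing about stability; with a library left out they were not run.

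The sign turned, always without passing, as follows (log2 fold change). Fabp4 was at -0.01 after median-of-ratios scaling, -0.06 with the Y-linked term and in the Y-linked libraries alone, and from -0.01 (without western diet replicate 1) to 0.12 with a library left out. Fabp5 was at -0.07 after median-of-ratios scaling, -0.06 after quantile normalization and after the GC correction, -0.20 with the Y-linked term and in those libraries alone, and from -0.12 to 0.08 with a library left out, below 0 without control replicate 1 (-0.0044), control replicate 2 (-0.05) or western diet replicate 1 (-0.12). With the Y-linked term and in those libraries alone Slc27a1 was at -0.35, Lmf1 at 0.05 and Lrp1 at -0.01. Lrp1 was also at -0.01 after quantile normalization, at -0.07 after the GC correction and from -0.01 (without western diet replicate 1) to 0.18 with a library left out. Lpl, Gpihbp1, Cd36, Fabp3 and Vldlr kept their sign in all 22, but not their size. With the Y-linked term Lpl was at -0.39, Gpihbp1 at 0.12, Cd36 at 0.07 and Fabp3 at 0.11. Among the other pathway genes named, that term gave 1.40 for Angptl4, 0.27 for Furin, 0.10 for Acsl1, 0.29 for Acsl3 and -0.16 for Acsl6. It gave 0.15 for Mylip, 0.20 for Lrp5, -0.05 for Apln, 0.11 for Ppard and 0.06 for Rbpj. After median-of-ratios scaling Lpl was at -0.21, Cd36 at 0.15 and Fabp3 at 0.13, and after quantile normalization Lpl was at -0.07 and Fabp3 at 0.08. Lpl was at -0.04 without western diet replicate 4 and -0.07 without control replicate 4, and Fabp3 at 0.13 in the libraries with Myl7 under 100 TPM. Median-of-ratios scaling moved the median of all genes from 0.06 to -0.01. No paired analysis was possible because the labels give no replicate numbers that the groups share. Depth is unknown, so low genes such as Slc27a1 carry a counting error that cannot be given.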
